A study of Mus musculus with 4 samples.

Results

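Solute carriers are membrane proteins that move nutrients, ions, metals and metabolites across the plasma membrane and across the membranes of mitochondria, lysosomes, Golgi and synaptic vesicles. The families are numbered by sequence, and a family usually shares a type of substrate. In tumour immune cells they are studied because myeloid cells, lymphocytes and tumour cells draw on the same cystine, sugars, lipids and metals. The 70 genes described here are all rows of the count table whose symbol begins with Slc and a digit, with Slc2a1, Slc16a1, Slc9b2, Slc11a1 and Slc40a1 left aside, out of 4099 gene rows. They were chosen by symbol alone, and 1 of them, Slc4a1ap, encodes an adaptor protein and not a transporter. The rows ran from chromosome 1 to part of chromosome 5, with 11, 26, 15, 13 and 5 of the 70 genes on chromosomes 1 to 5, so other families and members were not analysed here.

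The cells came from 4T1 tumours, a transplantable mammary carcinoma of BALB/c mice. The tumours were either wild-type (CON1 and CON2) or Mif-depleted (sgMif1 and sgMIif2), Mif being the gene of the cytokine macrophage migration inhibitory factor. Every sample combined 3 tumours, and in all of them CD45-positive cells that excluded propidium iodide were sorted for droplet single-cell RNA sequencing. No label or header ties the 4 barcode suffixes to the 4 samples, so no value below compares wild-type with Mif-depleted tumours, and each suffix is read as 1 library of unknown group. Expression was read from unique molecules (UMIs). Suffix 1 held 13162 cells and 29567302 UMIs, at a median cell of 1224.5, and suffix 2 held 3221 cells and 8578852 UMIs, at a median cell of 1712; 12 barcode sequences occurred under both. A level is a sum of UMIs over the cells that carry 1 of the authors' cell type names, per 10000 UMIs counted in those cells. Values are from suffix 1 unless suffix 2 is named. Bracketed values are exact 95% intervals for counting error alone. Since 1 library stands behind each value, no test was run.

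Several names need care, as levels of marker genes summed per list show. In cells named cDC1_Clec9a the osteoclast markers Ctsk, Atp6v0d2 and Mmp9 summed to 845. Of the 3 dendritic markers listed, Batf3, Cd40 and Ciita, 2 were measured, and these summed to 1.2. The name cDC1_Clec9a thus goes against its leading genes and is used only as the authors' label. The cells named pDC had osteoclast markers at 213 and neutrophil markers at 761. CD8_Tex cells carried macrophage markers at 208 beside T cell markers at 13.6, and Macro_Mgl2 cells carried neutrophil markers at 1214 and cycling markers at 47.1. Regulatory T cell markers were at 69.6 in CD4_Tfh and 37.4 in CD4_Th, against 189 in CD4_Treg and 2.55 in CD4_Tn. T cell markers in CD4_Tfh were at 60.6. In suffix 2 CD4_Tfh had regulatory T cell markers at 62.4 and T cell markers at 37.7. Neutrophil markers reached 5873 in neutrophils and still 192 in B cells. Cells named B_cell had B cell markers at 37.6, beside macrophage markers at 14.2 and cycling markers at 21.5. In suffix 2 these B cell markers were at 18.3, below macrophage markers at 34.7 and cycling markers at 33.2. Cells named epithelial and fibroblasts were present despite the CD45 sort, with their own markers at 136 and 739. The epithelial markers were at 151 in neutrophils, so in suffix 1 their sum does not set the epithelial name apart from neutrophils. In suffix 2 they were at 203 in epithelial cells and 87.7 in neutrophils. The part of such mixed transcripts in the values below was not tested.

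Promoter sequences of 4 genes from the cystine, neutrophil and zinc results below are shown. They were chosen among the genes whose calls held in every setting compared below, because their windows hold a match to a motif searched, and not for the size of their ratios. Each is the 250 bases before a RefSeq start (GRCm38.p6), 5′ to 3′ on the gene's strand. Capitals mark a short motif found by letters on either strand. In Slc7a11 (chr3:50443614-50443863, minus strand) they mark the amino acid response element TGATGNAA, which ATF4 is known to bind; the 2 matches lie 66 to 59 and 47 to 40 bases before the start in opposite directions. In Slc28a2 (chr2:122426185-122426434, plus strand) and Slc22a15 (chr3:101924454-101924703, minus strand) they mark AGGAAGT, a core of sites for the myeloid factor PU.1. In Slc30a1 (chr1:191906531-191906780, plus strand) they mark a metal response element, TGCACNC or TGCGCNC, as read by the zinc sensor MTF-1.
Slc7a11: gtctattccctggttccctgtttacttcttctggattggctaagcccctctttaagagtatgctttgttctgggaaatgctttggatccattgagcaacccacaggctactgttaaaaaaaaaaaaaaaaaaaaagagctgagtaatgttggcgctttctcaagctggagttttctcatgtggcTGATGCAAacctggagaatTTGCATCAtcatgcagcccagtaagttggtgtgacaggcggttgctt
Slc28a2: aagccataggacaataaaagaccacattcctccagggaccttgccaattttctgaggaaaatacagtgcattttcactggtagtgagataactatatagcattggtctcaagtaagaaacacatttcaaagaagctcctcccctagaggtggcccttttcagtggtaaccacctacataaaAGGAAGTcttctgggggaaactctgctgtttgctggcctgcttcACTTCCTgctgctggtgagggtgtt
Slc22a15: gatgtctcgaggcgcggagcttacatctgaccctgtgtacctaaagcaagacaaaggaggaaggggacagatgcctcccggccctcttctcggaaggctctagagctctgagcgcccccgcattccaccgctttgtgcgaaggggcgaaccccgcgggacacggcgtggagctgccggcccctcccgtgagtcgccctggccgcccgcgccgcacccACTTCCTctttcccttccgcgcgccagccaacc
Slc30a1: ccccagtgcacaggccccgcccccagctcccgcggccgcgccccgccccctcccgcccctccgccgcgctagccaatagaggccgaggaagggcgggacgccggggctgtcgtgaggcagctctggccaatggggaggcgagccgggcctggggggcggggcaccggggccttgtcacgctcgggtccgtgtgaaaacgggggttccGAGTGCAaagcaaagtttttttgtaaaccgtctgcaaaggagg
RefSeq gave a window for 60 of the 70 genes, 76 windows in all. The amino acid response element was found in 3 of the 76 windows and in 3.45% of all 32841 windows, the PU.1 core in 10 and in 7.69%, and the metal response element in 18 and in 21.4%. A match of letters is a description of the window and not a binding site.

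The 70 genes gave 106498 UMIs in suffix 1, or 0.360% of those counted, and 0.394% in suffix 2. Single genes ranged from 13 UMIs to the 8988 of Slc7a11. Of the 70, 55 had 50 or more UMIs in suffix 1 and were set, type by type, against all other cells of that suffix; the other 15, with 13 to 45 UMIs, were too sparse. A gene is called higher or lower in a type where the interval of the ratio lies wholly beyond 2-fold. Of the 55 genes, 44 were called higher in at least 1 of the 22 types reported, where 71.1% of all genes measured at that depth were, and 49 were called lower in at least 1, where 83.4% of all genes were. Both counts are close to those background shares and are no result about solute carriers as a group. In suffix 2, 30 and 41 of 52 genes were called, where 51.1% and 78.5% of all genes were. Slc20a1, a phosphate transporter, and Slc25a44, a mitochondrial carrier of branched-chain amino acids, were among the genes called in no type. The highest and lowest types of Slc20a1 still differed, from 4.40 [3.83, 5.03] in fibroblasts to 0.79 [0.61, 1.01] in cDC1_Clec9a, and in suffix 2 it was called higher in fibroblasts at 8.13 and in epithelial cells at 7.57.

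**Figure D1:**
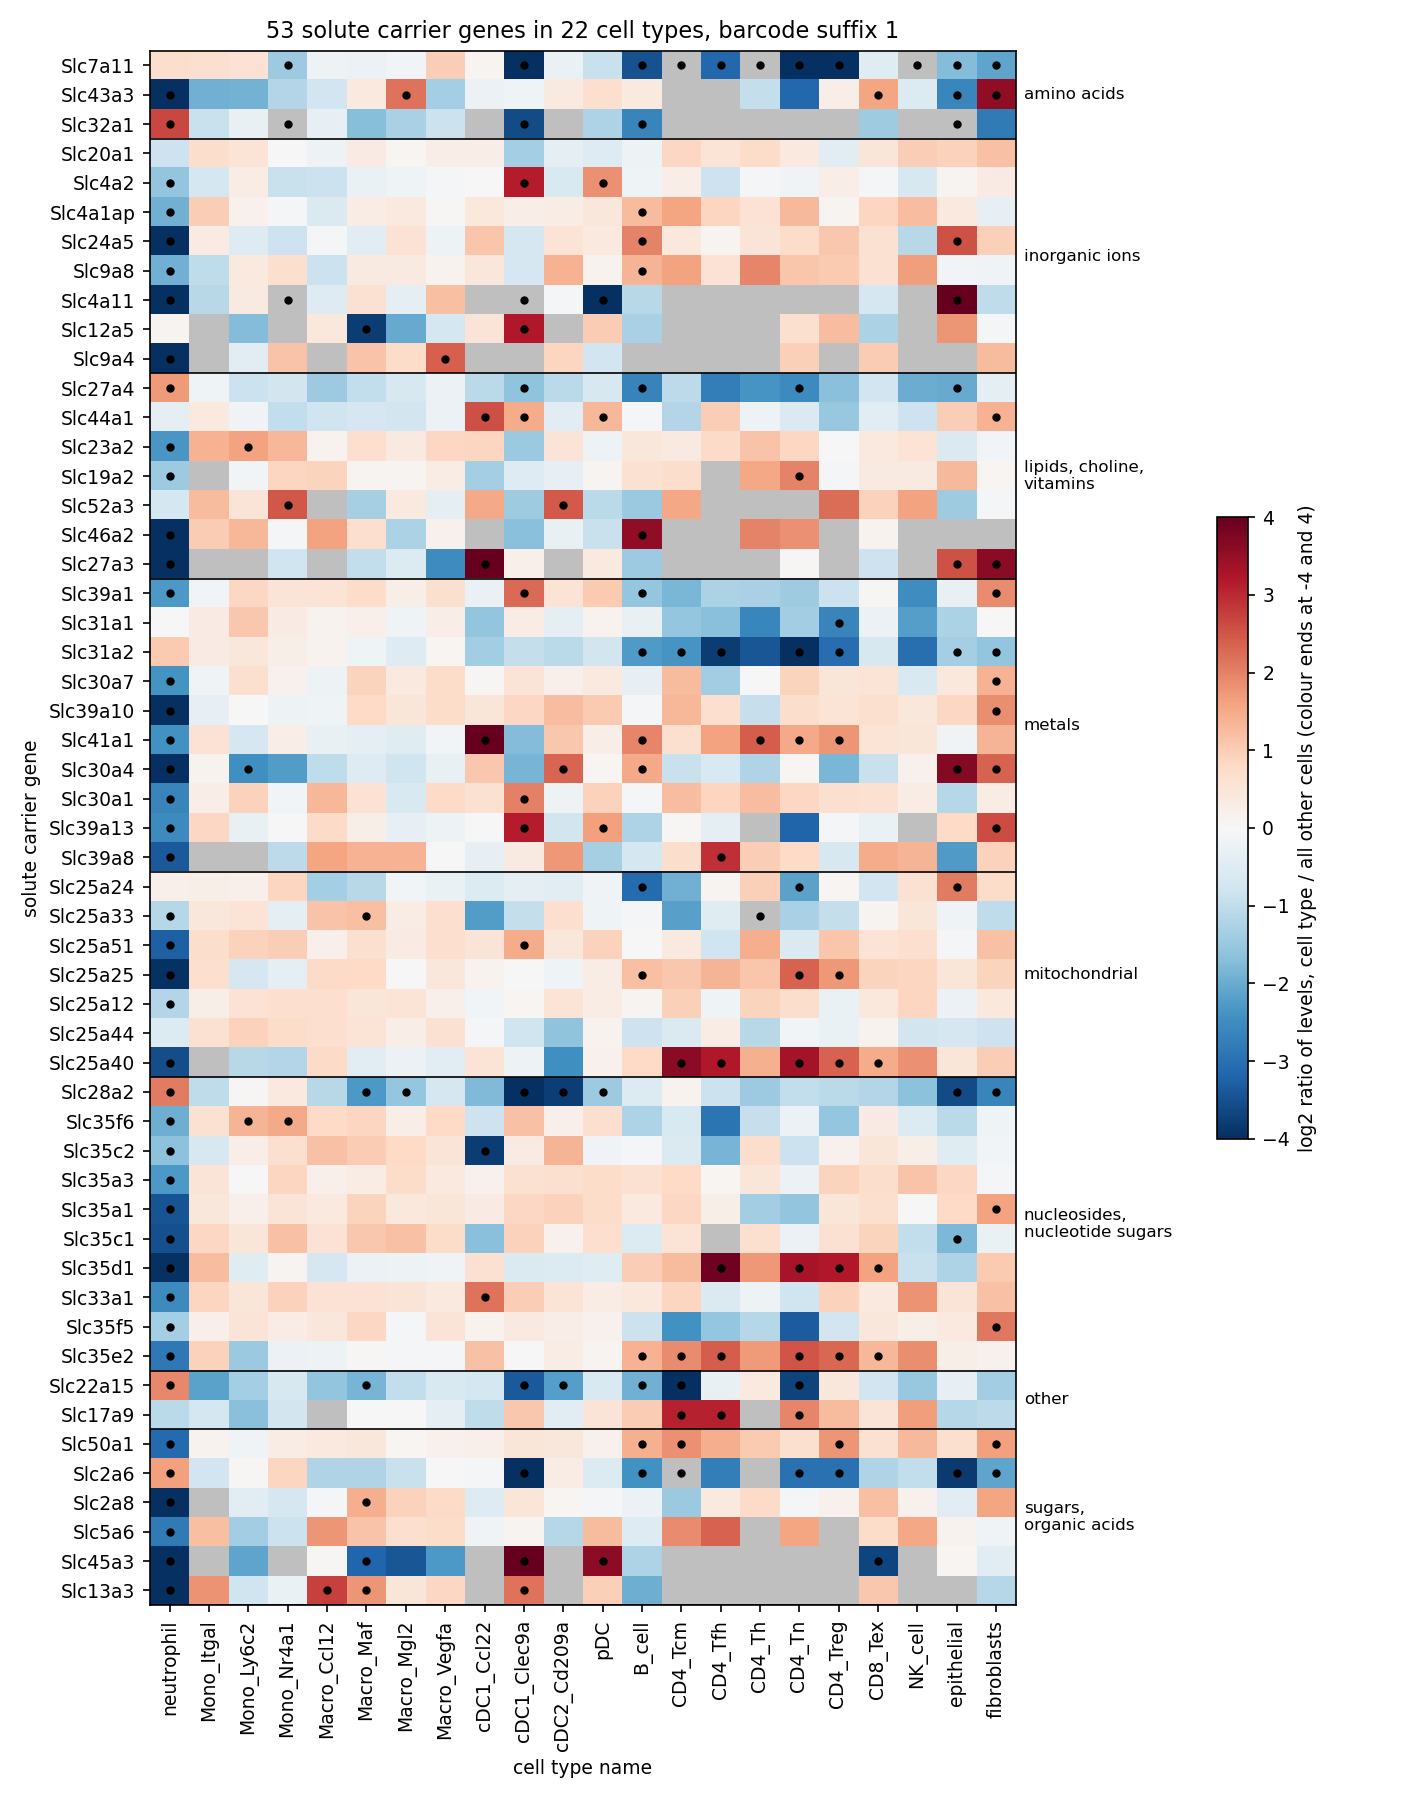
Log2 ratio of the level in each of 22 cell types (columns) to the level in all other cells of suffix 1, for 53 of the 55 solute carrier genes with 50 or more UMIs (rows, grouped by substrate class). Red is higher, blue is lower, grey marks a gene with 0 UMIs in that type, and dots mark ratios called beyond 2-fold; the neutrophil column holds 38 of the 99 lower calls drawn.

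Over genes and types there were 87 higher and 100 lower calls in suffix 1, so that 46.5% were higher, against 44.1% of the calls over all genes. Of these calls, 36 higher and 54 lower ones were made again in suffix 2, and no call was made in the opposite direction. Calls depended on the scale. S100a8 and S100a9 alone filled 58.5% of the UMIs of neutrophils, and without these genes in the totals the median ratio of all genes shifted by 1.21 (log2) in neutrophils and by -0.23 to -0.42 in the other types. The higher share of calls was then 33% for the solute carriers and 31.3% for all genes. It was 38.3% and 33.9% in suffix 2, 53.2% and 55.8% in UMIs per cell, and 33.7% and 26.1% with neutrophils left out of the other cells. Called in the main setting and in all 5 of those settings, including cells with 500 or more UMIs alone, were 24 higher pairs of a gene and a type, over 19 genes and 8 types, and 37 lower pairs, over 27 genes and 9 types. These are termed stable below.

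**Figure D2:**
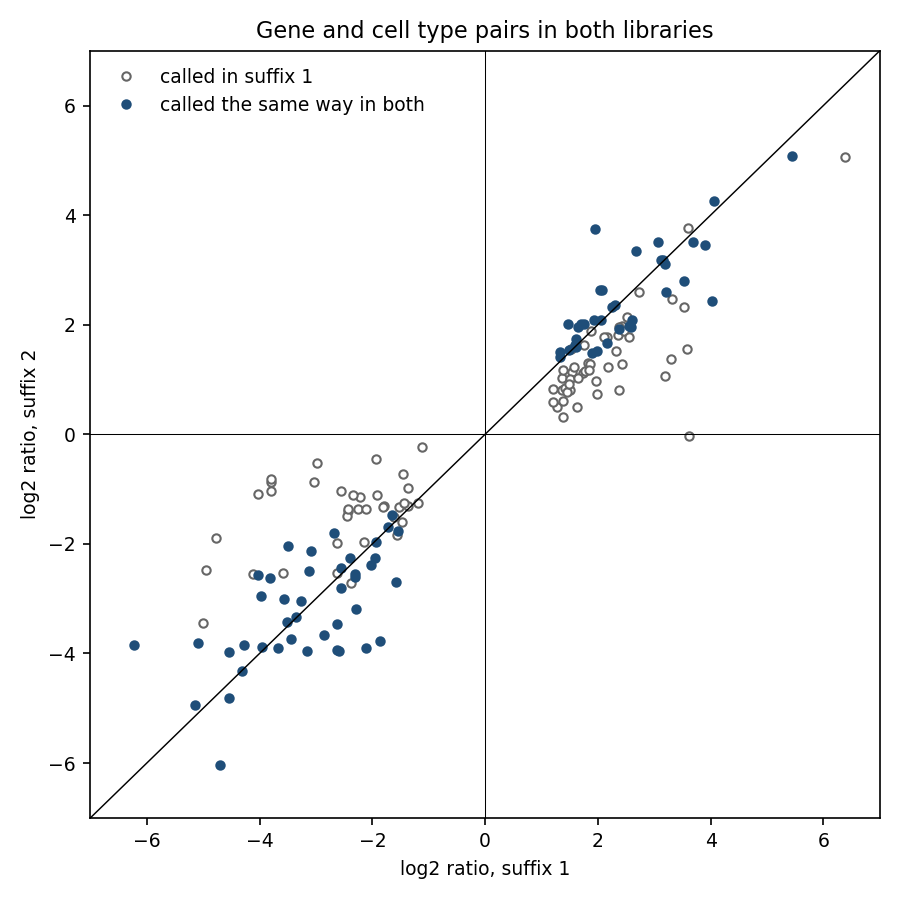
Log2 ratio to all other cells in suffix 1 (x axis) and suffix 2 (y axis) for 163 pairs of a solute carrier gene and a cell type that were called in suffix 1 and had UMIs on both sides in both libraries. Filled points were called the same way in both, the diagonal marks equal ratios, and 162 of the 163 pairs had the same sign.

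The amino acid transporters were led by Slc7a11, the cystine/glutamate antiporter that supplies cysteine for glutathione. In suffix 1 its highest levels lay in Macro_Vegfa, Mono_Itgal, Mono_Ly6c2 and neutrophils, and its lowest in CD4 T cell, B cell, NK cell and cDC1_Clec9a names. Slc7a11 reached 5.39 [5.14, 5.65] in Macro_Vegfa, 4.75 [3.64, 6.09] in Mono_Itgal, 4.45 [3.99, 4.95] in Mono_Ly6c2 and 4.03 [3.91, 4.15] in neutrophils. The first of these exceeded the second by 1.14-fold [0.88, 1.49], so their order is not resolved. Next came cDC1_Ccl22 at 3.29, Macro_Mgl2 at 2.81, Macro_Ccl12 at 2.62, Macro_Maf at 2.61, cDC2_Cd209a at 2.53 and CD8_Tex at 2.22. Below these stood pDC at 1.65, Mono_Nr4a1 at 1.12, epithelial cells at 0.94, fibroblasts at 0.71, B cells at 0.28 and cDC1_Clec9a at 0.13. Among T cells Slc7a11 had 3 UMIs each in CD4_Tfh, CD4_Tn and CD4_Treg, and 0 UMIs in CD4_Tcm, CD4_Th and NK cells, where 3 counts would be levels of 0.19, 0.45 and 0.59. It was called lower in 11 types and higher in none.

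Suffix 2 also had its highest Slc7a11 levels in myeloid names. There Macro_Vegfa stood at 7.06 [6.54, 7.61] and neutrophils at 6.31 [5.92, 6.70], both called higher, with 0 UMIs in CD4_Tcm, CD4_Tfh, CD4_Th, CD4_Treg and NK cells. cDC1_Ccl22 was at 1.05 in suffix 2, lower than its 3.29 in suffix 1. The lower calls of Slc7a11 were stable in B cells, CD4_Tcm, CD4_Tfh, CD4_Th, CD4_Treg, NK cells, cDC1_Clec9a and epithelial cells. Without S100a8 and S100a9 in the totals Slc7a11 was also called higher in neutrophils, at a log2 ratio of 1.91 in place of 0.70. The order of types depends on this scale. In suffix 1 S100a8 and S100a9 filled 58.5% of the UMIs of neutrophils and 6.70% of those of Macro_Vegfa. In suffix 2 these shares were 57.7% and 3.15%. With S100a8 and S100a9 out of the totals, the neutrophil level of Slc7a11 lies above that of Macro_Vegfa in both suffixes. Slc7a11 had a UMI in 39.7% of neutrophils and 2.13% of B cells, with median depths of 1120 and 558 UMIs. With each cell thinned to 500 UMIs these shares were 21.4% [20.2, 22.5] and 0.99% [0.49, 1.76], and in Macro_Vegfa the share went from 60.6% to 21.3% [18.6, 24.2].

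**Figure D3:**
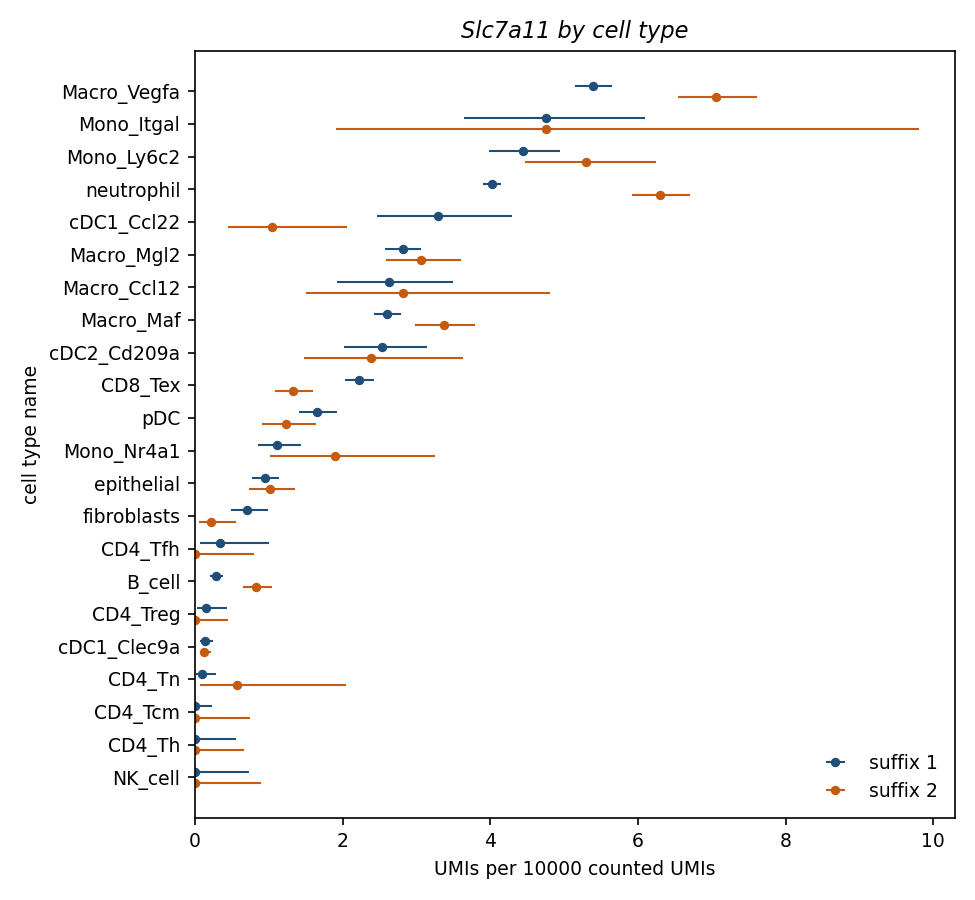
Level of Slc7a11 in UMIs per 10000 counted UMIs (x axis) in 22 cell types (y axis, ordered by suffix 1), with suffix 1 in blue, suffix 2 in orange and bars for exact Poisson 95% intervals. Macro_Vegfa lies at the top in both suffixes, at 5.39 and 7.06, Mono_Nr4a1 lies well below the other monocyte names in suffix 1, at 1.12, and CD4 T cell, B cell and NK cell names lie under 1.

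Monocyte names differed from each other in Slc7a11. It was 4.45 in Mono_Ly6c2 and 1.12 in Mono_Nr4a1, a log2 ratio of 1.99 [1.59, 2.41], and was the only 1 of 34 genes compared that was called higher, where 3.91% of all genes were; none was called lower, where 0.85% were. In suffix 2 Slc7a11 was 5.30 and 1.90 in the same types and was not called.

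Of the 6 other genes of the amino acid class, Slc43a3 and Slc32a1 had enough UMIs to be compared. Slc43a3, whose product is a purine nucleobase transporter although its family number places it here, was 2.84 [2.39, 3.35] in fibroblasts and 0.24 elsewhere. It was also 1.06 in Macro_Mgl2, and both calls were stable. It was called higher in CD8_Tex too, at 0.75, in suffix 1 alone. In suffix 2 Slc43a3 stood at 2.10 in fibroblasts and 0.96 in Macro_Mgl2. Between macrophage names of suffix 1 it was lower in Macro_Vegfa than in Macro_Maf, at 0.12 and 0.37, the only 1 of 48 genes called lower, where 0.845% of all genes were. In suffix 2, 0 of 38 genes were called lower between these names, where 0.608% of all genes were. Slc32a1, the vesicular GABA transporter of inhibitory neurons, was 0.31 [0.28, 0.34] in neutrophils and 0.05 in other cells, from 332 of its 422 UMIs. Its exons overlap those of Gm14205 on the opposite strand, and no source used here says whether counting used strand. The remaining 4 genes of the class had 27 to 43 UMIs each.

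The genes higher in neutrophils were few, of different families and stable. They were Slc32a1 and 4 others, 5 of 55, where 2.59% of all genes were called higher in neutrophils. Slc28a2, a sodium-coupled nucleoside transporter, was 2.40 [2.31, 2.49] against 0.57 in other cells in suffix 1 and 1.90 against 0.31 in suffix 2. Slc22a15, of the organic ion family, was 3.20 [3.10, 3.31] against 0.84 in suffix 1 and 1.98 against 0.47 in suffix 2. Slc27a4, a fatty acid transport protein with acyl-CoA synthetase activity, was 1.38 [1.31, 1.45] against 0.43, and 1.48 against 0.37 in suffix 2. Slc2a6, a hexose transporter of lysosomal membranes, was 1.37 [1.30, 1.44] against 0.44, and 1.02 against 0.26 in suffix 2. These genes were not confined to neutrophils.

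Each of them had neighbours in rank. Slc2a6 was not resolved from its level in Mono_Nr4a1, at 1.40 [1.10, 1.75], a ratio to neutrophils of 1.02 [0.80, 1.28]. Slc28a2 stood at 1.62 in Mono_Nr4a1 and Slc22a15 at 2.32 [1.70, 3.08] in CD4_Treg. In suffix 2 Slc22a15 was 2.41 in CD4_Treg, above the neutrophil level. These ranks hold with S100a8 and S100a9 in the totals. Those genes filled 58.5% of neutrophil UMIs and 4.36% of Mono_Nr4a1 UMIs in suffix 1. In suffix 2 they filled 57.7% of neutrophil UMIs and 0.297% of CD4_Treg UMIs. Without them, neutrophils lie above Mono_Nr4a1 for Slc2a6 in suffix 1 and above CD4_Treg for Slc22a15 in suffix 2. Against CD4_Tn cells, with 0.13, the CD4_Treg level of Slc22a15 was higher by 4.13 [2.67, 6.06] (log2), the only 1 of 13 genes compared that was called, where 8.73% of all genes were called higher and 2.61% lower. At the low end, Slc28a2 had 4 UMIs, or 0.05, and Slc22a15 0.17 in cDC1_Clec9a, and Slc2a6 had 2 UMIs there, or 0.02. Those 3 lower calls were stable. Slc28a2 was also higher in Macro_Vegfa than in Macro_Maf, at 0.81 and 0.27 (log2 1.56), the only 1 of 48 genes called higher, where 1.1% of all genes were. In suffix 2 the gene called higher between these names was Slc22a15, at 0.50 and 0.06.

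Most solute carriers were lower in neutrophils than in other cells, as most genes were. The lower calls numbered 38 of 55, where 73.5% of all genes were lower, and the median log2 ratio was -2.31 for the solute carriers and -2.39 for all genes. Without S100a8 and S100a9 in the totals 9 genes were higher, where 9.19% of all genes were, and 23 were lower, where 46.5% were, with medians of -1.10 and -1.18. The genes added on the higher side were Slc7a11, Slc25a24, Slc31a1 and Slc31a2. The lower calls of 20 genes were stable. Among them Slc24a5, Slc4a11, Slc45a3 and Slc39a10 were lower by 5.15, 5.09, 5.53 and 4.53 (log2). Slc25a12, the mitochondrial aspartate/glutamate carrier, and Slc25a33, a mitochondrial pyrimidine nucleotide carrier, were lower by 1.19 and 1.13 in the main scale but stood at 0.02 and 0.08 without S100a8 and S100a9.

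**Figure D4:**
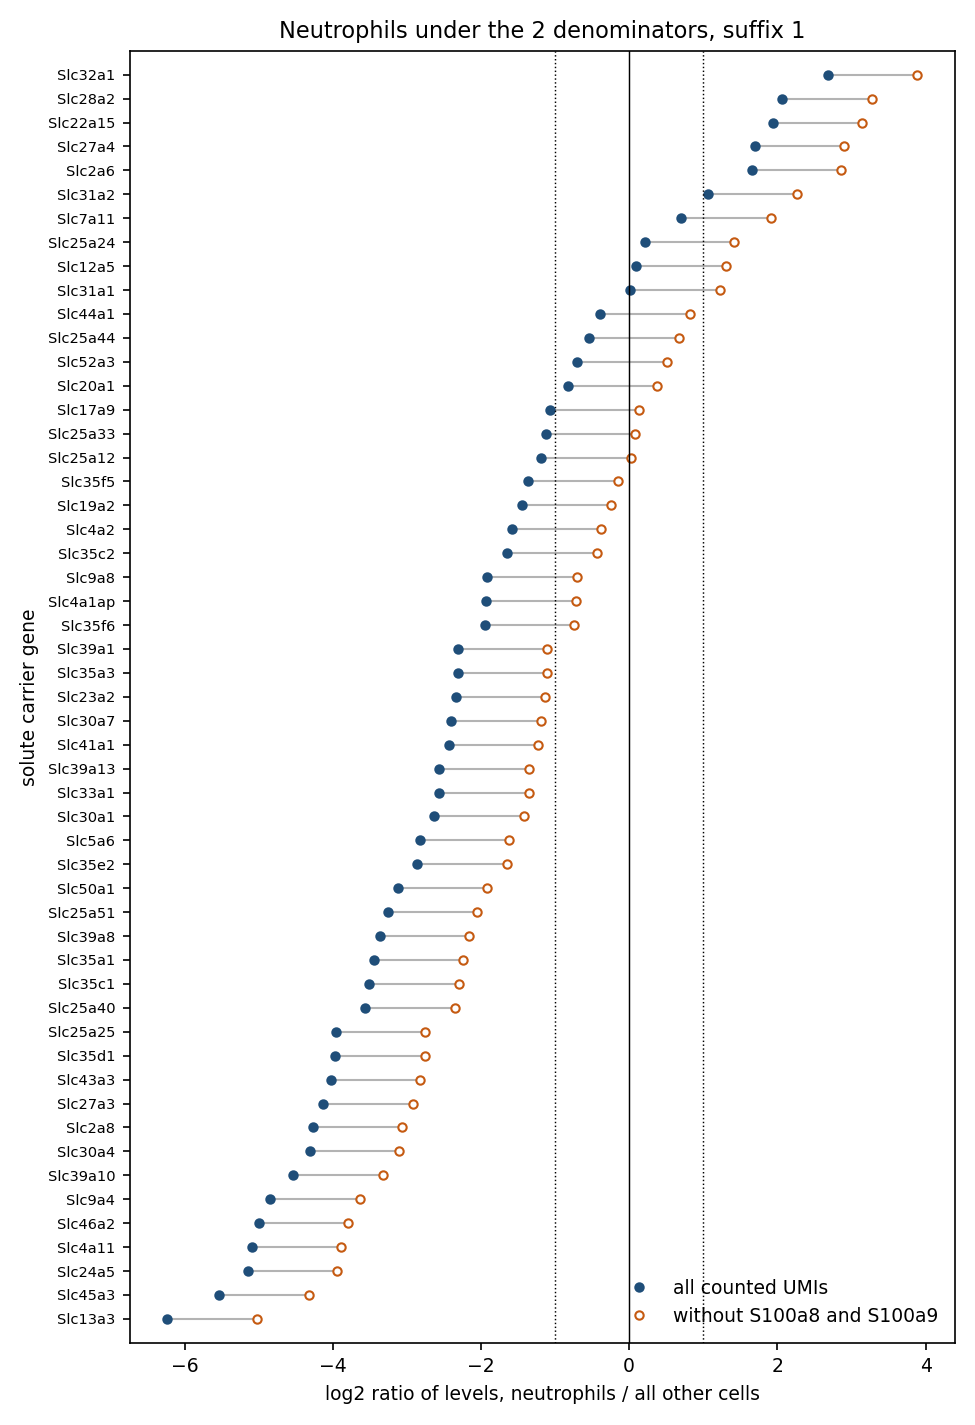
Log2 ratio of the level in neutrophils to that in all other cells of suffix 1 (x axis) for 53 of the 55 solute carrier genes (y axis), with all counted UMIs (filled) and without S100a8 and S100a9 in the totals (open); dotted lines mark 2-fold. Slc32a1, Slc28a2, Slc22a15, Slc27a4 and Slc2a6 lie above 2-fold under both, and the change of denominator moves every gene by 1.21 to the right.

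As a sum, metal transporter genes were highest in fibroblasts and cDC1_Clec9a, where Slc39a1 made up the largest part. Other members had their highest level elsewhere in suffix 1. These were Slc41a1 in cDC1_Ccl22, Slc31a1 in Mono_Ly6c2, Slc31a2 in neutrophils and Slc30a4 in epithelial cells, among others. Summed over the class, metal genes reached 19 [17.8, 20.3] in fibroblasts and 18.2 [17.3, 19.2] in cDC1_Clec9a, against 5.39 in neutrophils and 3.94 in NK cells; without S100a8 and S100a9 the neutrophil sum was 13. Of the 12 genes, 10 were measured deeply enough and 8 of them were called higher in at least 1 type, where 71.1% of all genes were. Slc39a1, a zinc importer of the plasma membrane, was 9.58 [8.92, 10.3] in cDC1_Clec9a and 7.87 [7.10, 8.69] in fibroblasts, with 4.39 in pDC, 2.07 to 3.82 in monocyte names, 0.79 in B cells and 0.63 in neutrophils. In suffix 2 Slc39a1 stood at 12.6 and 9.85 in the first of these types. Slc39a13, a zinc transporter of the secretory pathway needed for connective tissue, had the same order, with 2.22 [1.91, 2.57] in cDC1_Clec9a and 1.70 in fibroblasts, and 3.79 and 3.17 in suffix 2. All 4 of these calls were stable. Slc39a13 shares 147 exon bases with Psmc3 on the opposite strand.

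The zinc exporters split by type. Slc30a1, which removes zinc at the plasma membrane, was 1.20 [0.97, 1.46] in cDC1_Clec9a against 0.29 elsewhere, and 2.21 in suffix 2, a stable call. Slc30a4, which loads zinc into vesicles and is known from milk, was 0.10 in cDC1_Clec9a and instead 3.0 [2.70, 3.32] in epithelial cells, 1.68 in fibroblasts and 1.67 in cDC2_Cd209a. In suffix 2 Slc30a4 stood at 3.02, 1.45 and 1.13 in these types, and the first of these calls and that in fibroblasts were stable. Slc39a10, a zinc importer, was 1.99 in fibroblasts and 0.04 in neutrophils. Slc30a7, a zinc transporter of the Golgi, was 1.52 in fibroblasts. Slc39a8, a zinc and manganese importer, had 227 UMIs, of which 12 lay in neutrophils, and its only higher call in suffix 1, in CD4_Tfh, rested on 5 UMIs. In suffix 2 it was instead called higher in fibroblasts, at 0.48 from 9 UMIs. In suffix 2 neither Slc39a10 nor Slc30a7 was called in fibroblasts, and both stood at 1.13 there.

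**Figure D5:**
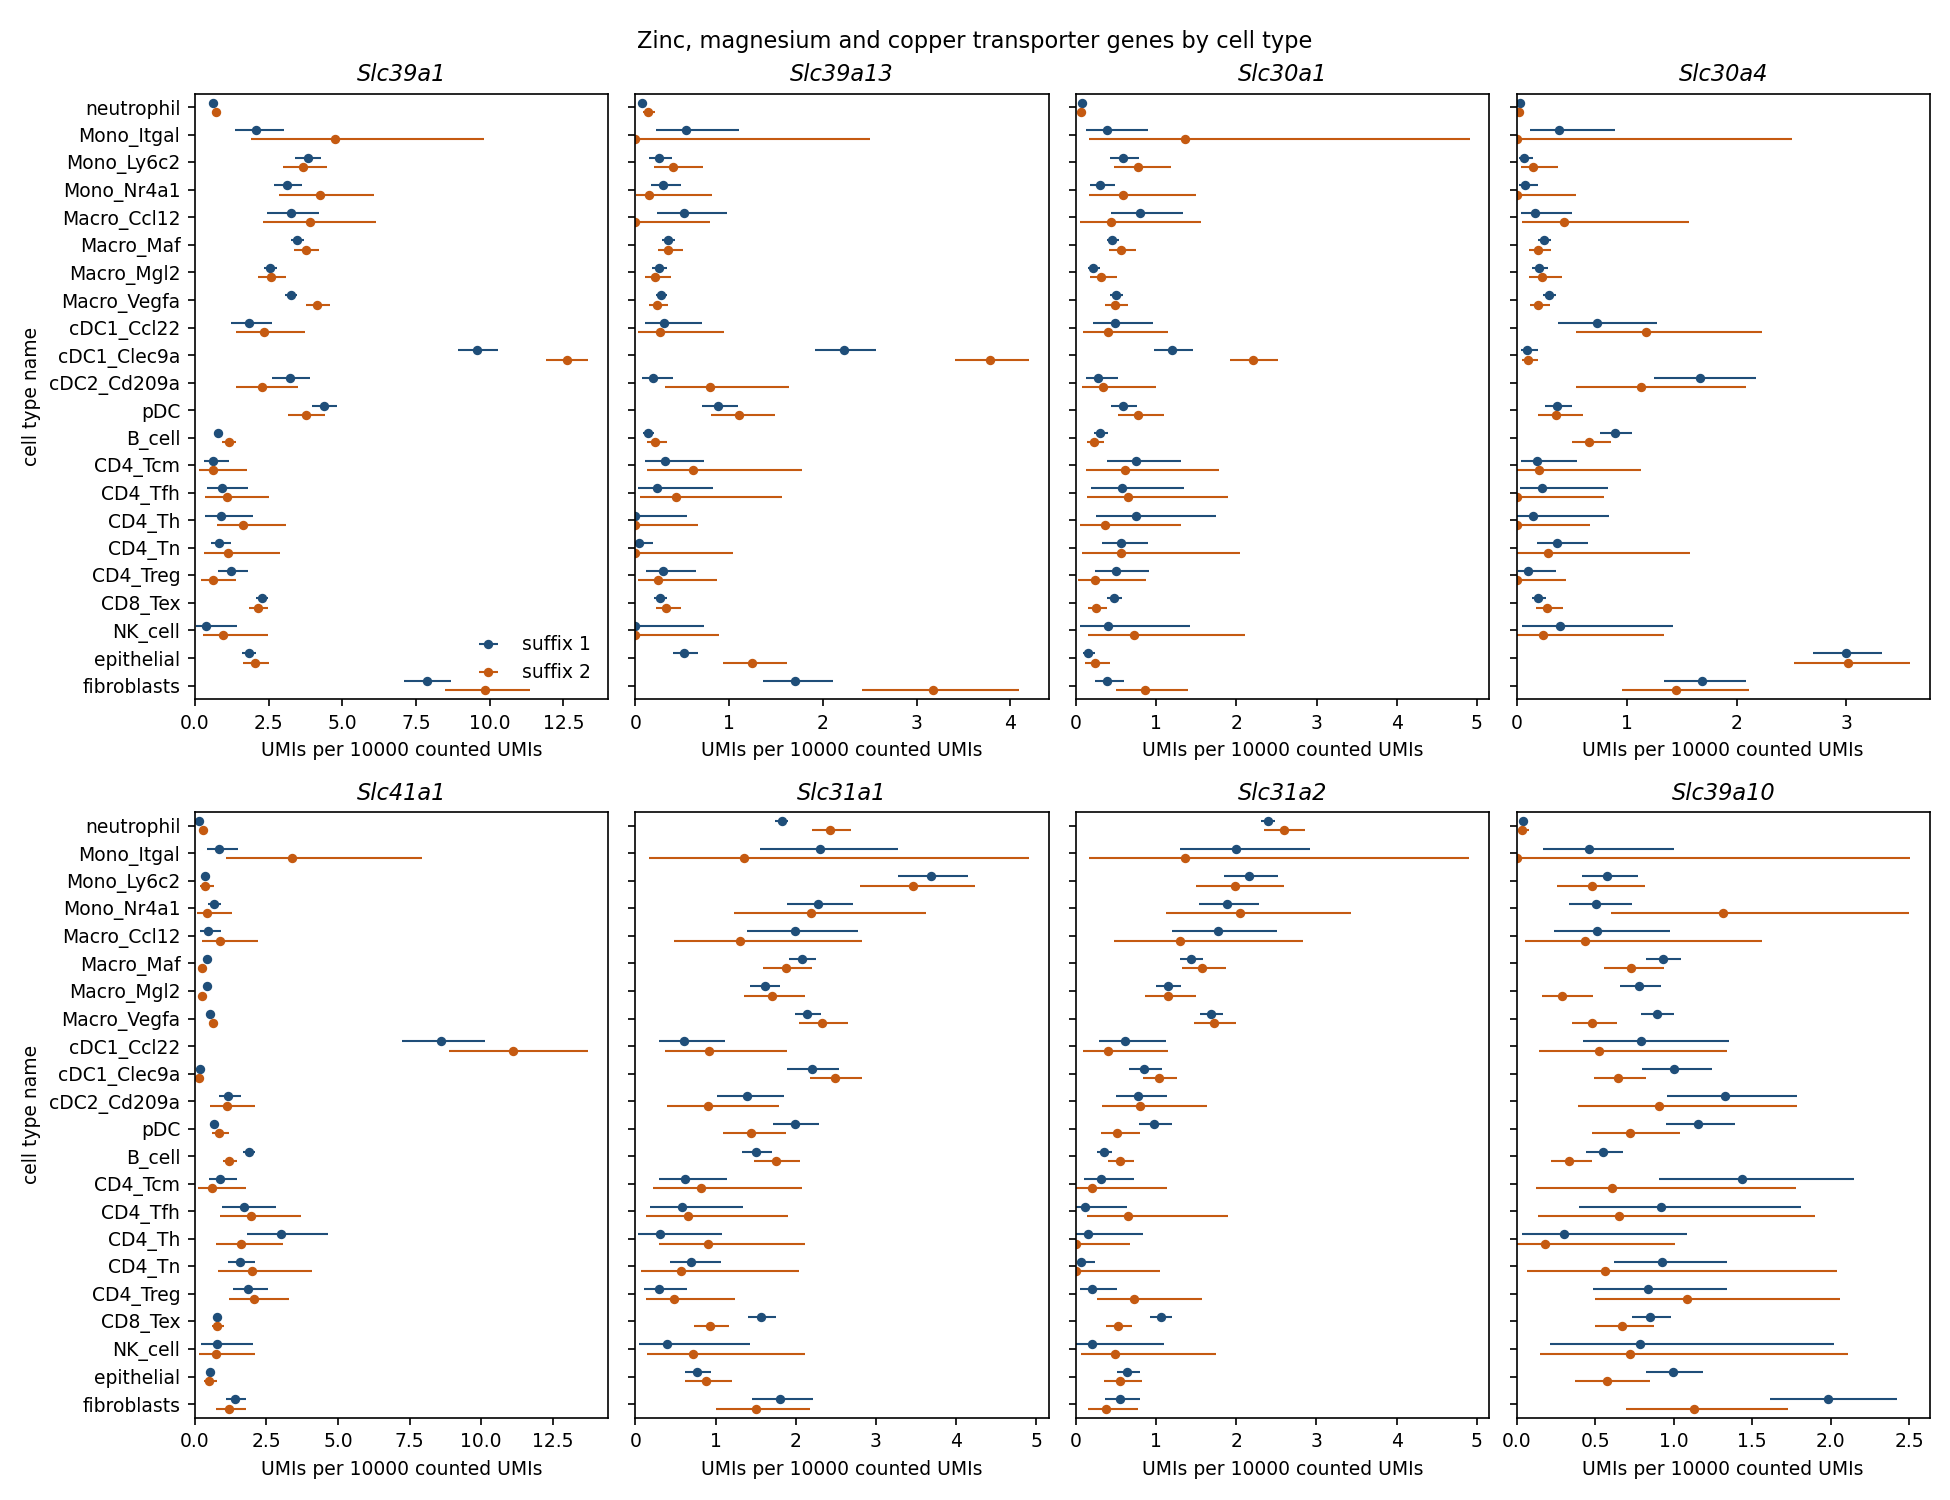
Levels of 8 metal transporter genes in UMIs per 10000 counted UMIs (x axes, scaled per gene) in 22 cell types (y axis), with suffix 1 in blue, suffix 2 in orange and exact Poisson 95% intervals. Slc39a1, Slc39a13 and Slc30a1 peak in cDC1_Clec9a, Slc30a4 in epithelial cells and Slc41a1 in cDC1_Ccl22 in both suffixes. The order of cDC1_Clec9a and the next type is not resolved for Slc30a1 in either suffix or for Slc39a13 in suffix 2.

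The magnesium gene Slc41a1 was called higher in cDC1_Ccl22 and in B cell and CD4 names, while the copper genes had no higher call in suffix 1. Slc41a1, whose product is a magnesium exchanger, was 8.59 [7.23, 10.1] in cDC1_Ccl22, from 141 UMIs in 88 cells, against 0.52 in other cells, and 11.1 [8.88, 13.7] in suffix 2. The next type was CD4_Th at 3.0, followed by B cells at 1.89, CD4_Treg at 1.87 and CD4_Tn at 1.59, and neutrophils were at 0.15. Of the higher calls of Slc41a1, that in cDC1_Ccl22 alone was made again in suffix 2. A UMI of Slc41a1 was found in 52.3% of cDC1_Ccl22 cells and, after thinning, in 28.8% [19.2, 40.0], against 2.56% of neutrophils and 0.98% after thinning. cDC1_Ccl22 cells carried the 2 measured dendritic markers at 19.7, more than any other type, beside neutrophil markers at 367. Slc31a1, the high-affinity copper importer, was 3.69 [3.27, 4.15] in Mono_Ly6c2 and 2.30 in Mono_Itgal, a ratio of 1.61 [1.10, 2.42], with 1.83 in neutrophils and 0.30 in CD4_Treg. It was called higher in no type of either suffix and lower in CD4_Treg alone. Its neighbour on chromosome 4, Slc31a2, was 2.39 [2.30, 2.49] in neutrophils, 2.16 in Mono_Ly6c2, 1.69 in Macro_Vegfa, 0.35 in B cells and 0.07 in CD4_Tn. Slc31a2 was called lower in 7 types and higher in none. In suffix 2 Slc31a2 was called higher in neutrophils, at 2.59.

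Of 10 genes placed in the inorganic ion class by family number and deep enough, the adaptor gene Slc4a1ap among them, 8 were called higher in at least 1 type, where 71.1% of all genes were. Those described here were called in cDC1_Clec9a, epithelial or B cells. Slc4a2, the chloride/bicarbonate exchanger that osteoclasts use when they acidify bone, was 4.43 [3.99, 4.91] in cDC1_Clec9a against 0.51 elsewhere, and 5.77 against 0.64 in suffix 2. It was 2.04 in pDC, so cDC1_Clec9a exceeded the next type by 2.18-fold [1.82, 2.60]. Slc4a2 shares 817 exon bases with Fastk on the opposite strand. Slc12a5, a potassium/chloride cotransporter best known from neurons, was 0.32 [0.21, 0.47] in cDC1_Clec9a from 26 UMIs, and 0.40 in suffix 2. Both calls were stable. Slc4a11, a water and proton transporter, was 1.64 [1.42, 1.88] in epithelial cells and 0.10 elsewhere, and 0.94 in suffix 2. Slc24a5, a cation exchanger of melanosomes, was 2.07 [1.82, 2.34] in epithelial cells and 1.44 in B cells; it shares 714 exon bases with Myef2 on the opposite strand. The epithelial calls of Slc4a11 and Slc24a5 were stable, and the B cell call of Slc24a5 was lost in UMIs per cell. Slc9a8, a sodium/proton exchanger of the Golgi, was 0.74 in B cells, called in suffix 1 alone.

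Among the sugar and organic acid transporters, of which 5 of 6 were called higher in at least 1 type, where 71.1% of all genes were, Slc45a3 had the highest ratio among stable calls. This sugar transporter, known as prostein, was 1.10 [0.88, 1.35] in cDC1_Clec9a and 0.03 elsewhere, a log2 ratio of 5.44 [4.97, 5.90], and 5.07 in suffix 2. It was 0.49 in pDC and had 2 UMIs in all 5712 neutrophils. Slc45a3 shares 395 exon bases with Gm29103 on the same strand. Slc50a1, a sugar exporter of the SWEET family, was 4.80 [3.79, 6.0] in CD4_Tcm, 4.63 in CD4_Treg, 4.20 in fibroblasts and 3.36 in B cells, and 0.23 in neutrophils. None of the 4 higher calls of Slc50a1 was made in suffix 2, where the levels were 3.86, 3.5, 3.17 and 2.64. Slc5a6, a vitamin and iodide cotransporter placed here by its family, had 200 UMIs and was called higher nowhere and lower in neutrophils. Slc2a8, an intracellular hexose transporter, was called higher in Macro_Maf at 0.41, in suffix 1 alone. Slc13a3, a dicarboxylate transporter, was called higher in Macro_Ccl12 at 0.29 from 5 UMIs, in cDC1_Clec9a at 0.18 and in Macro_Maf at 0.12. Of these the call in Macro_Maf was made again in suffix 2.

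Of the lipid, choline and vitamin transporters, 7 of 7 deep enough were called higher in at least 1 type, where 71.1% of all genes were. Slc44a1, a choline transporter, was 4.08 [3.16, 5.19] in cDC1_Ccl22, a stable call, then 1.87 in cDC1_Clec9a, 1.76 in fibroblasts and 1.66 in pDC. In suffix 2 Slc44a1 stood at 3.40, 2.16, 1.99 and 2.24 in these types. Slc23a2, a vitamin C transporter, was 1.95 [1.65, 2.29] in Mono_Ly6c2, 1.76 in Mono_Itgal and 1.64 in Mono_Nr4a1, against 0.19 in neutrophils. Its call in Mono_Ly6c2 was made again in suffix 2, at 2.25, and lost with neutrophils left out of the other cells. Slc19a2, a thiamine transporter, was 0.60 [0.35, 0.94] in CD4_Tn from 18 UMIs, and had 1 UMI in that type in suffix 2. Slc27a3, an acyl-CoA synthetase, had only 94 UMIs, of which 30 lay in cDC1_Ccl22, a level of 1.83 [1.23, 2.61] against 0.02. Slc46a2 had 113 UMIs, of which 46 lay in B cells, a level of 0.28. Slc27a3 and Slc46a2 are named after their values were seen.

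Of the 7 mitochondrial carriers deep enough, 5 were called higher in at least 1 type, the same share as the 71.1% of all genes. Slc25a24, an ATP-magnesium/phosphate carrier, was 4.31 [3.95, 4.70] in epithelial cells, 1.03 elsewhere and 0.15 in B cells, both stable calls, and 3.98 in epithelial cells of suffix 2. The related Slc25a25 was 3.78 [3.12, 4.54] in CD4_Tn, 2.51 in CD4_Treg and 1.65 in B cells. None of these higher calls of Slc25a25 was made again in suffix 2. The exons of Slc25a25 overlap those of Naif1 on the opposite strand. Slc25a40, which carries glutathione into mitochondria, was 1.93 in CD4_Tcm, 1.53 in CD4_Tn and 1.49 in CD4_Tfh, against 0.15 to 0.16 in the other cells. In suffix 2 Slc25a40 had 1, 4 and 2 UMIs in these types. Slc25a40 was also called higher in CD4_Treg and CD8_Tex. Its CD8_Tex call alone was made again in suffix 2, and was lost with neutrophils left out of the other cells. Slc25a33 was 2.45 in Macro_Ccl12 and 2.30 in Macro_Maf, with the latter called, and 1.22 in Macro_Maf of suffix 2 without a call. Slc25a51, which carries NAD into mitochondria, was called higher in cDC1_Clec9a at 2.66, beside 2.70 in CD4_Th, and was 2.12 there in suffix 2 without a call.

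Of 10 nucleoside and nucleotide sugar transporters 7 were called higher in at least 1 type, near the 71.1% of all genes. Slc35d1, which supplies UDP-sugars for chondroitin sulphate, was 5.17 [3.77, 6.92] in CD4_Tfh, 3.25 [2.64, 3.96] in CD4_Tn and 3.15 [2.43, 4.03] in CD4_Treg, against 0.33 to 0.35 in the other cells. CD4_Tfh, whose regulatory T cell markers are given above, exceeded CD4_Tn by 1.59-fold [1.09, 2.29]. In suffix 2 Slc35d1 stood at 4.55, 1.13 and 2.54, and the calls in CD4_Tfh and CD4_Treg were stable. In CD8_Tex it was 0.97, called in both suffixes but not with neutrophils left out of the other cells. Slc35e2, of unknown substrate, was called higher in 4 CD4 names at 1.18 to 1.79, as well as in B cells and CD8_Tex. Of these calls, those in CD4_Treg and CD8_Tex were made again in suffix 2. Slc35f6 was 2.37 in Mono_Nr4a1 and 2.12 in Mono_Ly6c2, and Slc35f5 1.36 and Slc35a1, the CMP-sialic acid transporter, 1.16 in fibroblasts. All were called higher in suffix 1, and the call of Slc35a1 alone was made again in suffix 2. Slc35a3, which carries UDP-N-acetylglucosamine, Slc35c1, the GDP-fucose transporter, and Slc35c2 were called higher in no type. Slc35c1 ranged from 0.86 in Mono_Nr4a1 and 0.81 in Macro_Mgl2 to 0.05 in neutrophils, and Slc35c2 from 2.10 in cDC2_Cd209a to a single UMI, 0.06, in cDC1_Ccl22. Slc33a1, which brings acetyl-CoA into the ER, was 1.52 in cDC1_Ccl22, called in suffix 1 and not at 0.92 in suffix 2. Slc17a9, the vesicular nucleotide transporter, was called higher in CD4_Tfh at 1.03 from 9 UMIs, in CD4_Tcm at 1.00 from 16 UMIs, and in CD4_Tn. The calls in CD4_Tcm and CD4_Tn were made again in suffix 2, at 1.42 from 7 UMIs and 1.70 from 6 UMIs.

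By cell type, fibroblasts, B cells and cDC1_Clec9a held the most higher calls in suffix 1, 11, 10 and 9. The count of solute carriers is given first and the share of all genes called the same way second. Fibroblasts had 11 higher (16.7%) and 4 lower (5.92%), and epithelial cells 5 higher (16.9%) and 9 lower (12.1%). cDC1_Clec9a had 9 higher (10.4%) and 7 lower (10.7%), and pDC 4 higher (5.98%) and 2 lower (2.99%). cDC1_Ccl22 had 4 higher (7.83%) and 1 lower (2.9%), and cDC2_Cd209a 2 higher (4.07%) and 2 lower (3.98%). Macrophage and monocyte names had few calls in either direction. Macro_Maf had 3 higher (5.55%) and 4 lower (9.59%), Macro_Vegfa 1 higher (2.87%) and 0 lower (8.39%), Macro_Mgl2 1 higher (3.9%) and 1 lower (5.83%), and Macro_Ccl12 1 higher (2.9%) and 0 lower (1.45%). Mono_Ly6c2 had 2 higher (2.76%) and 1 lower (6.15%), and Mono_Nr4a1 2 higher (3.67%) and 3 lower (7%). Mono_Itgal, with 41 cells, had 0 in both directions (1.45% and 1.05%).

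Among lymphoid names the higher calls ranged from 10 in B cells to 0 in NK cells. B cells had 10 higher (16.1%) and 8 lower (14.7%). CD4_Tn had 7 higher (10%) and 6 lower (9.68%), CD4_Treg 6 higher (9.48%) and 4 lower (5.86%), CD4_Tfh 5 higher (7.46%) and 2 lower (3.64%), CD4_Tcm 4 higher (10.8%) and 4 lower (6.69%), and CD4_Th 1 higher (5.72%) and 2 lower (2.87%). CD8_Tex had 4 higher (6.97%) and 1 lower (4.58%), and NK cells, of which there were 58, 0 higher (4.95%) and 1 lower (2.36%). Median depths were 558 UMIs in B cells and 590 to 1014 in the CD4 names, against 1120 in neutrophils and 4857 in cDC1_Clec9a. Counting UMIs per cell moves all genes of a type alike, by -1.40 (log2) in B cells and by -0.92 to -1.87 in CD4 names, and on that scale 1 of the 10 higher calls in B cells and 5 of the 23 in CD4 names remained. In suffix 2 B cells had 1 higher (7.06%) and 7 lower (12.9%). CD4_Treg there had 3 higher (5.47%) and 2 lower (4.24%), CD4_Th 2 higher (3.82%) and 1 lower (3.47%), CD4_Tcm 1 higher (4.02%) and 2 lower (4.15%), CD4_Tfh 1 higher (3.98%) and 1 lower (3.17%), and CD4_Tn 1 higher (2.46%) and 0 lower (3.47%).

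Pooled lymphoid names (B, T and NK cells) against pooled myeloid names gave 13 genes higher, where 26.8% of all genes were, and 7 lower, where 4.7% were, of 54 compared. The median log2 ratio was 0.42 for the solute carriers and 0.69 for all genes. The 7 lower in lymphoid cells were Slc7a11, Slc2a6, Slc27a4, Slc22a15, Slc31a2, Slc32a1 and Slc45a3. Slc7a11 was 1.15 in lymphoid and 3.58 in myeloid names, and the lymphoid value includes 2.22 in CD8_Tex. Slc31a2 was 0.64 and 1.87, and Slc27a4 0.30 and 0.91. On the higher side Slc35d1 was 1.18 and 0.20, Slc25a40 0.53 and 0.09, and Slc50a1 2.78 and 1.00. In suffix 2 there were 5 higher, namely Slc24a5, Slc50a1, Slc35d1, Slc35e2 and Slc25a40, where 13.7% of all genes were, and 9 lower, where 8.34% were, with Slc7a11 at 0.91 and 4.11. Without CD8_Tex, whose macrophage markers are given above, there were 13 higher, where 27.5% of all genes were, and 8 lower, where 11.2% were, with medians of 0.22 and 0.66, and Slc7a11 stood at 0.22 in the lymphoid names.

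Other transporters and the genes of cystine use add context to these patterns. Of 25 pumps, ABC transporters and organic anion transporters measured, 23 were deep enough, and 21 were called higher in at least 1 type, where 71.1% of all genes were. In cDC1_Clec9a 9 of them were higher, where 10.4% of all genes were, among them the proton pump subunits Atp6v0d2, at 38.5 against 0.59, Atp6v1g1, at 92.5 against 15.8, and Atp6v0b, at 53.9 against 12.5. Atp6v0d2 was also among the osteoclast markers used above. Slco5a1 was 2.93 in cDC1_Ccl22 and 0.01 elsewhere, beside Slc41a1 and Slc44a1. In CD4_Tcm Atp1b1, a sodium pump subunit, was 6.86 against 0.27. Of 18 genes of amino acid supply and redox response, 12 were higher in at least 1 type, where 71.1% of all genes were, so that count is no result about the list. Nfe2l2, a regulator of antioxidant genes that is known to control Slc7a11, was 14.3 in Macro_Maf and 13.7 in Macro_Vegfa. Slc7a11 differed more between these types, and a link between the levels of Nfe2l2 and Slc7a11 was not tested. Gclm, a subunit of the glutathione-making ligase, was 3.26 in neutrophils against 1.52. Of the 18 genes, 1 was called higher in neutrophils, where 2.59% of all genes were, and 10 lower, where 73.5% were. In suffix 2, 0 of 17 were called higher there, where 2.82% of all genes were, and 6 lower, where 66.7% were. Gss, the glutathione synthetase, was 1.10 in cDC1_Clec9a against 0.28, where Slc7a11 was 0.13. Cth, which makes cysteine from cystathionine, was 0.53 in epithelial cells against 0.02.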

How the data were processed

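The authors deposited UMI counts per gene and cell, and 1 cell type name per barcode. The submitters' processing notes name Cell Ranger, Seurat, GRCm38 and mm10, with neither versions nor roles; no source used here states filters, strandedness of counting or how names were assigned. Counts covered all 13162 cells of suffix 1 and 3221 of 11961 cells of suffix 2, over 4099 complete gene rows, so totals per cell hold these chromosomes alone. An incomplete row was dropped. The results of 1 of 23 cell type names and the values of 2 of the genes are not reported here, although those cells stay among the other cells and the pooled myeloid cells, and those genes in the counts. Doublets were not called here.

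UMIs were summed by type and suffix and given per 10000 counted UMIs with Poisson 95% intervals. Ratios to all other cells of a suffix had exact conditional binomial 95% intervals, and were called where both sides together had 50 or more UMIs and the interval lay beyond 2-fold. Shares of cells had exact Clopper-Pearson intervals, also after each cell was thinned to 500 UMIs, which left out shallower cells. A count of 0 allows up to 3 counts. The planned edgeR test between groups was not run, as suffixes are tied to no sample. Genes with 200 or more UMIs, or called higher in the same type in both suffixes, could be named. The members and lists were chosen with earlier results of these data known. Exons come from GENCODE M21 and promoter windows from RefSeq. Alternatives were totals without S100a8 and S100a9, UMIs per cell, suffix 2, cells with 500 or more UMIs, neutrophils left out of the other cells, a minimum of 20 UMIs and a 1.5-fold threshold. The ratio procedure was tested on simulated data. Software: Python 3.11.15 with numpy 2.4.6, with scipy 1.17.1, with pandas 2.3.3, and matplotlib 3.10.9 for plots.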

Additional observations from a re-analysis of the deposited data

How the results depend on the processing

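The count of genes called in at least 1 type stayed within 1.5 times of the 44 higher and 49 lower under every alternative run. Counts of gene and type calls moved more. Higher calls went from 87 to 209 in UMIs per cell, to 46 in suffix 2, to 55 with neutrophils left out of the other cells and to 148 at 1.5-fold, and lower calls from 100 to 184 in UMIs per cell. In suffix 2 the lymphoid comparison had 5 genes higher in place of 13, and 0 genes were called lower in Macro_Vegfa against Macro_Maf, 0 higher in Mono_Ly6c2 against Mono_Nr4a1 and 0 higher in CD4_Treg against CD4_Tn, where no gene had enough UMIs. The log2 ratio changed sign in 10 cases. In UMIs per cell Slc25a25 was at -0.20, Slc9a8 at -0.0374, Slc35e2 at -0.024 and Slc4a1ap at -0.13 in B cells, Slc50a1 at -0.0565 in CD4_Tcm, Slc41a1 at -0.29 in CD4_Tn and Slc28a2 at 0.19 in Macro_Mgl2. In suffix 2 Slc25a40 in CD4_Tcm was at -0.0295, from 1 UMI. Without S100a8 and S100a9 Slc25a12 and Slc25a33 in neutrophils were at 0.0216 and 0.0813. The cause was not tested. No paired analysis was possible because the barcode suffixes are tied to no sample, and for the same reason no replicate was left out and the comparison of Mif-depleted with wild-type tumours was not run.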
